A study of Arabidopsis thaliana with 8 samples.

Results

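The data described here are the response of wild-type Arabidopsis thaliana seedlings to 1 h of benzyladenine (BA), a synthetic cytokinin. The comparison takes in 4 of the 8 arrays of the series, namely the 2 titled Wt-BA and the 2 titled Wt-dmso, chosen by their titles and not by any measured value. Each array is a single-colour Affymetrix gene array hybridised with biotin-labelled target made from total RNA. The BA group held 14-day-old wild-type seedlings moved on their filter paper into liquid Murashige and Skoog medium with 10 µM BA, and the DMSO group held seedlings of the same genotype and age moved into the same medium with the solvent DMSO. All had been grown on sucrose-containing agar under continuous white light, and after the treatment the roots were cut off and the shoots frozen, although the tissue label reads seedling. The other 4 arrays are of the arr1,10,12 mutant with and without BA, and they enter only where named. The labels leave unsaid whether replicate arrays had separate cultures behind them, so p-values measure the spread between these samples, which may be technical.

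Cytokinin is sensed by histidine kinase receptors that pass a phosphate through phosphotransfer proteins to the response regulators. Type-B response regulators such as ARR1, ARR10 and ARR12 are transcription factors that carry the signal to target genes, and among their quickest targets are the type-A regulators, which in turn dampen the pathway. In shoots the hormone is known for its part in meristem activity, chloroplast development and the delay of leaf ageing. Cytokinin is inactivated by oxidation and by the attachment of glucose, and the glucose is attached by members of the large UDP-glycosyltransferase (UGT) family.

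The deposited value of a probe set (the set of short probes that reads a transcript) is a linear ratio, here called its relative value. For 70.1% of the probe sets the values have a median within 0.005 of 1 over the 8 arrays of the series, and 29.9% have a lower median, RR16 and ARR15 among them. Relative values can therefore be compared between arrays for a given gene, but not between genes, and whether a tissue marker was absent cannot be read from them. The 4 arrays had median relative values of 0.920 and 0.909 (BA) and 0.933 and 0.927 (DMSO). The 5′ and 3′ control probe sets of actin, GAPDH and ubiquitin formed 6 pairs. Their median log2 ratio of 5′ to 3′ was 0.01 and 0.05 on the BA arrays and 0.15 on each DMSO array. As a ratio of relative values, it can be compared between arrays but gives no absolute measure of RNA integrity. The 25S ribosomal RNA control read 0.697 and 1.16 on the BA arrays and 0.666 and 0.755 on the DMSO arrays. The 24 spike-in control probe sets for Bacillus transcripts differed between the groups by -0.19 to 0.81 on the log2 scale (median 0.02). The part of these differences in the results was not tested. In bulk shoot RNA, a change in the number of cells of a type cannot be told apart from a change in RNA per cell.

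After 1 h of BA, 960 of the 22746 probe sets tested differed from DMSO (4.22%), by limma fitted on the log2 relative values of these 4 arrays with Benjamini-Hochberg adjustment (adjusted p under 0.05). Of these, 411 were higher with BA (1.81% of those tested) and 549 lower (2.41%). Their median log2 change was 1.09 for the higher and -1.08 for the lower probe sets, and the smallest change called was 1.55-fold. A change of 2-fold or more was seen in 254 of the higher and 331 of the lower probe sets, and of 4-fold or more in 39 and 48. All 960 had BA and DMSO arrays that did not overlap, as did 49.8% of all probe sets. With the annotation given, 447 of the 960 could be assigned to a single gene. They stand for 443 of 13356 named genes (3.32%), of which 184 rose (1.38%) and 259 fell (1.94%). Among the 30 largest changes only 9 probe sets carried a gene name, so much of the strongest response has no name here.

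These counts depended on the DMSO arrays and on the BA arrays, and a fit without 1 of them has 1 residual degree of freedom. Without DMSO replicate 1 the log2 change was 2.31 for RR16 and 2.60 for ARR15. Without DMSO replicate 2 it was 2.07 and 2.55, against 2.19 and 2.57 with all 4 arrays. Without DMSO replicate 1 or without DMSO replicate 2 no probe set passed limma, with 3671 and 4163 at an unadjusted p under 0.05 against 4382 with all 4 arrays, so none of the calls named in the following outlasts the loss of a DMSO array. Without BA replicate 1 473 probe sets passed and without BA replicate 2 178. In a fit over all 8 arrays of the series, whose shared estimate of the spread includes the mutant arrays, 5 passed. With 7 arrays, without mutant DMSO replicate 1, 516 passed. A mutant array had stood apart in an earlier analysis of these data, so the choice of 7 was made with values known. Of the 960 called probe sets, 612 (63.8%) lay further from the DMSO mean on BA replicate 2 than on BA replicate 1. The median log2 difference from the DMSO mean was 1.04 on BA replicate 1 and 1.14 on BA replicate 2 for the higher probe sets. For the lower ones it was -1.04 and -1.11. The share over all probe sets was not worked out.

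**Figure D1:**
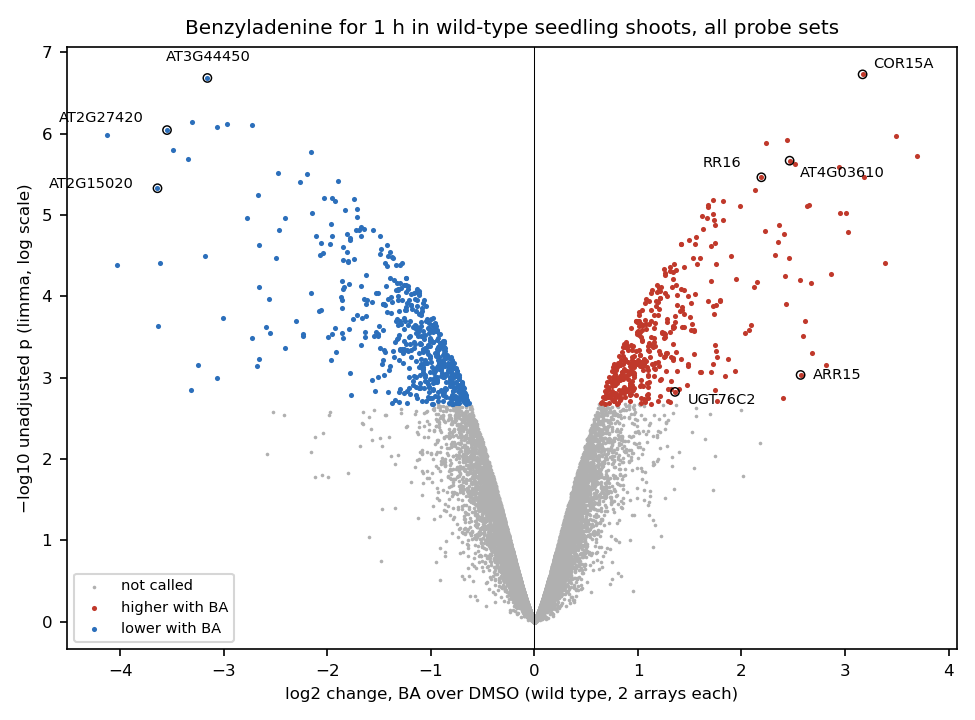
Each point is a probe set; the x axis gives the log2 change, BA over DMSO, in wild type (2 arrays each) and the y axis the −log10 of the unadjusted limma p. The 411 called probe sets that were higher with BA are red, the 549 lower ones blue, and 8 named genes are ringed, from AT2G15020 at -3.64 to COR15A at 3.17.

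Cytokinin signalling itself was represented by few named probe sets, and those of the type-A regulators rose. RR16 (ARR16) had relative values of 3.93 and 3.85 on the BA arrays, against 0.926 and 0.783 on the DMSO arrays. ARR15 read 6.16 and 2.23 with BA and 0.635 and 0.613 with DMSO. Thus the 2 named type-A regulators, of 10 in the list, were higher on both BA arrays, RR16 evenly and ARR15 with a wide gap between its replicates. The log2 change of RR16 was 2.19 ± 0.14 (SE, n = 2 arrays a group, limma adjusted p = 0.00356), a 4.57-fold increase. That of ARR15 was 2.57 ± 0.43 (limma adjusted p = 0.0313), and it was 1.84 without BA replicate 1 and 3.303 without BA replicate 2. ARR15 did not pass in the limma fit over all 8 arrays (adjusted p = 0.164) or with an offset of 1 (0.104), and did with 7 arrays, without mutant DMSO replicate 1 (0.0349). Both genes are among the 29.9% of probe sets with a lower median, taken as dim and left out in an alternative fit, which therefore gives no value for them. How far their DMSO values lay above background cannot be read from the ratios.

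UGT76C2, which attaches glucose to the ring nitrogen of cytokinins and so inactivates them, read 3.78 and 2.37 with BA and 1.33 and 1.03 with DMSO. It rose 2.56-fold (log2 change 1.36 ± 0.25, SE, limma adjusted p = 0.0410). The call of UGT76C2 ended with 7 arrays (limma adjusted p = 0.0893), with an offset of 1 (0.0785), under quantile normalization (0.0696) and with trended, robust moderation (0.0693). UGT76C1, the neighbouring enzyme with the same activity, read 0.965 and 0.723 with BA and 1.05 and 0.858 with DMSO, so its arrays overlapped, and it was not called (-0.18 ± 0.19). Of the type-B regulators, RR18 (0.19 ± 0.13) and RR19 (-0.37 ± 0.22) were not called either. The receptors, the phosphotransfer proteins and the other early cytokinin targets listed had no named probe set.

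AZG1, a purine permease that carries adenine and guanine, was 1.62 and 2.07 with BA and 0.702 and 0.611 with DMSO (log2 change 1.49, limma adjusted p = 0.0124). It was picked out after its values were seen, because BA is itself an adenine derivative.

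The 15 largest named increases included genes of enzyme families, of chaperones and of cold-regulated proteins. AT5G47980, a BAHD-type acyltransferase gene, had 9.43 and 15.95 with BA, against 1.59 and 1.43 with DMSO, an increase of 8.14-fold (log2 change 3.03 ± 0.25, limma adjusted p = 0.00583). AT3G57010, of the strictosidine synthase-like family, read 4.86 and 8.61 with BA and 0.763 and 1.03 with DMSO. UGT76E12, a glycosyltransferase, stood at 3.93 and 4.28 with BA and 0.789 and 0.729 with DMSO. In each of these 3 genes the BA arrays lay far above the DMSO arrays, and BA replicate 2 was the higher. GSTU26, a tau-class glutathione transferase, rose 5.13-fold (4.57 and 5.91 with BA, 0.897 and 1.15 with DMSO).

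AT4G03610, of the metallo-beta-lactamase fold family, was close between replicates, with 5.50 and 5.94 on the BA arrays and 0.946 and 1.13 on the DMSO arrays (log2 change 2.46 ± 0.15, limma adjusted p = 0.00306). It was also 1 of the 3 named genes that passed in the fit over all 8 arrays, together with RR16 and AT2G27420. AT1G21550, an EF-hand calcium-binding protein gene, had 4.36 and 6.45 with BA and 1.01 and 0.994 with DMSO. AT3G05640, of the protein phosphatase 2C family, had 3.04 and 4.53 with BA and 0.713 and 0.745 with DMSO. AT1G10585, a bHLH transcription factor gene, had 3.46 and 5.65 with BA and 0.907 and 0.751 with DMSO. These regulatory genes rose by 2.35 to 2.42 on the log2 scale. With 7 arrays AT1G10585 (limma adjusted p = 0.0778) did not pass, nor did AT3G57010 (0.0669). The remaining genes among the 15 largest named increases were COR15A, COR15B, AT2G29500 and AT5G48570, described with their groups, and AT3G01260 and AT2G41730, which rose by 2.67 and 2.43. AT2G41730 is read by a probe set whose type, by its suffix, includes probes that can match other transcripts.

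**Figure D2:**
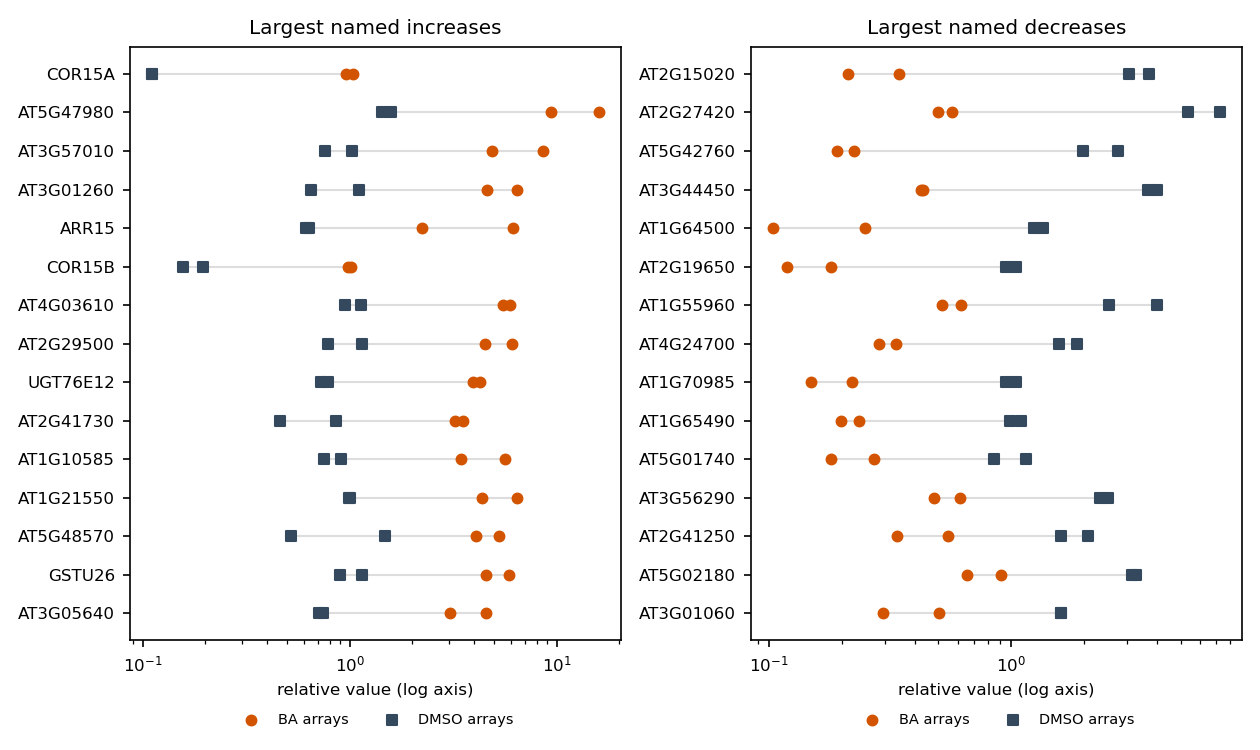
Relative values (log axis) of the 15 named genes with the largest increases (left panel) and decreases (right panel), with BA arrays as circles and DMSO arrays as squares. Groups that do not overlap were a condition for choosing these genes. ARR15 with BA and AT5G48570 with DMSO show wide gaps between replicates.

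The strongest named decreases fell on genes of varied or unknown function. AT2G15020, a gene of unknown function, had 0.345 and 0.212 with BA, against 3.08 and 3.71 with DMSO. AT3G44450 (BIC2), an inhibitor of the blue-light receptor cryptochrome, read 0.433 and 0.424 with BA and 4.00 and 3.67 with DMSO. AT5G42760, which encodes a predicted methyltransferase, read 0.225 and 0.191 with BA and 1.97 and 2.77 with DMSO. These 3 genes lay at least 8-fold apart between any BA array and any DMSO array. AT3G44450 fell by 3.16 on the log2 scale (SE 0.13, limma adjusted p = 0.00235), with the smallest SE of the 15 largest named decreases.

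AT2G27420, a papain-like cysteine protease gene, had 0.568 and 0.498 with BA and 5.35 and 7.25 with DMSO. AT1G55960, which encodes a lipid-binding START domain protein, had 0.618 and 0.517 with BA and 2.54 and 4.01 with DMSO. AT1G64500, a glutaredoxin family gene, had 0.248 and 0.104 with BA and 1.35 and 1.24 with DMSO. All 3 were lower on both BA arrays, as was every gene called lower. AT1G64500 had the widest gap, as a ratio, between its BA arrays among the 15. AT5G02180, of the amino acid transporter family, fell by 2.07 (0.903 and 0.654 with BA, 3.15 and 3.29 with DMSO), and AT2G19650, AT4G24700, AT1G70985, AT1G65490, AT5G01740, AT3G56290, AT2G41250 and AT3G01060 had log2 changes of -2.78 to -2.06. The 15 largest named decreases had limma adjusted p-values of 0.00235 to 0.0161. AT1G64500 did not pass with trended, robust moderation (0.167), nor AT1G70985 with 7 arrays (0.0636).

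From the 30 named decreases next in size, which lay between -1.97 and -1.48 on the log2 scale, 6 were picked out after their values were seen, because their function is known. They do not stand for the others, and AT1G13650 (-1.97), AT4G16563 (-1.97), AT2G04795 (-1.89) and AT5G35970 (-1.86) headed the 30. SWEET2, a sugar transporter of the vacuole membrane, had 0.785 and 0.585 with BA, against 2.76 and 2.19 with DMSO. ATSPS4F, a sucrose phosphate synthase, had 0.668 and 0.574 with BA and 1.67 and 2.49 with DMSO. AT3G21670 (NPF6.4), of the nitrate transporter family, had 0.619 and 0.462 with BA and 1.63 and 2.30 with DMSO. These 3 genes fell by 1.72 to 1.86 on the log2 scale. AFR, an F-box protein of far-red light signalling, fell by 1.78 on the log2 scale. GAT1_2.1, a glutamine amidotransferase-like gene, fell by 1.62 on the probe set with the higher mean, while its other probe set differed by -0.20 and was not called. AT5G15950, an S-adenosylmethionine decarboxylase gene of polyamine synthesis, fell by 1.48. Each of the 6 passed limma, with adjusted p-values of 0.00606 to 0.0155.

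Genes in named groups were counted against the background of 3.32% of all named genes called, 1.38% higher and 1.94% lower. The pathway lists held 188 genes, of which 33 had a named probe set, and 10 of these rose and none fell. The lists were chosen with earlier results of these data known, so their share against the background is no test of a pathway response.

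The UGT family, which conjugates hormones, phenolics and foreign compounds with sugars, had 50 named genes, of which 6 rose, 1 fell and 43 were not called (14.0% called). Besides UGT76E12 and UGT76C2, the 6 were UGT76E11, UGT84A4, UGT73B5 and UGT73B4. UGT76E11 had 3.09 and 3.04 with BA and 1.03 and 0.974 with DMSO, a log2 change of 1.62 ± 0.12. UGT84A4 rose by 1.29, UGT73B5 by 1.24 and UGT73B4 by 1.04, with limma adjusted p-values of 0.0143 to 0.0390. UGT74D1 fell by 1.11 on the log2 scale. Its call ended with 7 arrays (limma adjusted p = 0.0562) and with an offset of 1 (0.0695), as did that of UGT84A4 with an offset of 1 (0.0837). The family's median change was 0.06, and that of all named genes -0.04, with members from -1.11 to 2.44. UGT73C1, picked out after its values were seen, at 1.67 and 3.18 with BA and 0.873 and 1.13 with DMSO, was not called (adjusted p = 0.0949 by limma). Of the other detoxification families, 1 of 13 named glutathione transferases rose (GSTU26). Of 26 genes matched by name to the cytochrome P450 family, CYP84A4 rose by 1.11 and CYP71B26 fell by 1.31. The match took in CYP59 and CYP71, which are cyclophilins and not cytochrome P450 enzymes, and neither was called.

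The 3 named genes of the cold, drought and abscisic acid list rose. COR15A, a chloroplast protein that protects membranes in freezing, had 1.04 and 0.963 with BA, against 0.111 on each DMSO array. That value was the lowest of all probe sets on DMSO replicate 1. COR15B, its close relative, had 1.02 and 0.985 with BA and 0.195 and 0.157 with DMSO. COR47, a dehydrin, was 1.02 and 1.05 with BA and 0.668 and 0.546 with DMSO. As in every gene called higher, all BA arrays were above all DMSO arrays. The log2 changes were 3.17 ± 0.13 for COR15A, 2.51 ± 0.15 for COR15B and 0.77 ± 0.15 for COR47 (limma adjusted p = 0.00235, 0.00317 and 0.0451). The call of COR47 ended with the replicate number as a block (limma adjusted p = 0.0610), with 7 arrays (0.115) and with an offset of 1 (0.0636). In a wider family of 11 named genes with late embryogenesis abundant or cold-regulated names, COR27, a cold- and clock-linked gene, also rose (1.42 ± 0.17), 7 were not called and none fell.

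Chaperone genes split. Of 10 named small heat shock protein genes, out of 18 in a family list drawn up after the values had been seen, 4 rose and 1 fell (50.0% called). AT2G29500, a cytosolic member, had 4.52 and 6.09 with BA, against 0.788 and 1.15 with DMSO. AT5G51440, a mitochondrial member, had 4.14 and 5.89 with BA and 0.959 and 1.301 with DMSO. AT1G53540 rose by 1.80 and AT1G54050 by 1.74 on the log2 scale. AT4G21870 was the member that fell, with 0.287 and 0.516 on the BA arrays and 1.03 and 0.973 on the DMSO arrays (limma adjusted p = 0.0495), a call that ended with 7 arrays (0.0757), with an offset of 1 (0.0604) and with median centring (0.0522). The other 5, among them the endoplasmic reticulum member ATHSP22.0 (-0.28 ± 0.16), were not called, and the median over the 10 was 0.17. AT5G48570 (ROF2), a peptidyl-prolyl isomerase that binds the heat shock protein HSP90, had 5.24 and 4.07 with BA and 0.519 and 1.48 with DMSO (2.40 ± 0.46, limma adjusted p = 0.0451), and did not pass under quantile normalization (0.0685). Hop3, a stress-induced co-chaperone named after its values were seen, rose by 1.75.

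CC-type glutaredoxins, small plant-specific redox proteins several of which act with TGA transcription factors, were covered by 17 of 21 family members, also listed after the values had been seen. In this family 4 rose, none fell and 13 were not called (23.53% called). AT2G47880 had 2.64 and 2.93 with BA, against 0.906 and 0.999 with DMSO. ROXY2 had 2.52 and 2.76 with BA and 1.21 and 0.903 with DMSO. GRX480 had 1.24 and 1.501 with BA and 0.696 and 0.728 with DMSO, and AT4G15680 had 2.51 and 1.86 with BA and 1.16 and 1.11 with DMSO. The 4 rose by 0.93 to 1.55 on the log2 scale (limma adjusted p = 0.00647 to 0.0428). AT4G15680 did not pass with 7 arrays (0.147), with an offset of 1 (0.0687), under quantile normalization (0.0858) or with trended, robust moderation (0.110). The log2 change was positive in 14 of the 17, with a median of 0.54, where that of all named genes was -0.04. AT1G64500, the glutaredoxin family gene that fell, is not of this type.

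Dirigent proteins guide the coupling of phenolic radicals in lignan and lignin formation. Of 15 named members (25 in a family list drawn up after the values were seen), 3 rose and 1 fell (26.7% called). AT4G11190 had 5.65 and 8.04 with BA, against 1.32 and 1.82 with DMSO. AT4G11210 had 3.20 and 4.28 with BA and 1.22 and 1.31 with DMSO. AT1G58170 rose by 1.54, while AT1G65870 fell by 1.09 on the log2 scale. Among 14 named SWEET sugar transporters, also grouped after the values were seen, SWEET4 rose (1.73 and 1.61 with BA, 0.569 and 0.509 with DMSO, limma adjusted p = 0.00577), SWEET2 fell and 12 were not called. With 7 arrays neither SWEET4 (limma adjusted p = 0.123) nor SWEET2 (0.0730) passed, and AT1G58170 (0.0590) and AT1G65870 (0.0695) did not with an offset of 1.

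Wall-loosening genes, the xyloglucan endotransglucosylases and expansins, held 29 named members, of which EXPA4 (1.03 ± 0.16) and EXPB3 (0.98 ± 0.18) rose and none fell. EXPB3 did not pass with 7 arrays (limma adjusted p = 0.247) or with an offset of 1 (0.0759), nor EXPA4 with trended, robust moderation (0.0551). BHLH101, a transcription factor of the iron deficiency response, rose by 1.48 and was the called member among 6 named bHLH genes matched by name. In the touch and rapid stress list, AT1G76640 (CML39), a calmodulin-like gene, rose by 0.98 ± 0.15, while WRKY53 (0.75 ± 0.20), CML38 (0.79 ± 0.40), CML37 (0.10 ± 0.14) and STZ (-0.07 ± 0.38, the list's remaining named gene, given to complete it after its values were seen) were not called. The arrays of CML38 overlapped, at 0.862 and 1.49 with BA and 0.447 and 0.963 with DMSO.

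Several groups held no called gene. All 7 named photosystem and light-harvesting genes had negative log2 changes with a median of -0.35, but none passed. LHCB4.2 was the nearest, at 0.592 and 0.269 with BA and 0.930 and 1.07 with DMSO (-1.32 ± 0.35, limma adjusted p = 0.105). RCA, the activase of the carbon-fixing enzyme Rubisco and the only named gene of the shoot marker list, read 0.677 and 0.674 with BA and 0.994 and 1.01 with DMSO, a difference of -0.57 ± 0.12 that just missed the threshold (limma adjusted p = 0.0634). Nor did CHLM (-0.56 ± 0.16) and PORB (-0.21 ± 0.35), enzymes of chlorophyll synthesis, pass. The defensin gene PDF1.2, the named gene of the jasmonate list, differed by -0.63 ± 0.14 (limma adjusted p = 0.0624).

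The 3 named genes of the early auxin list, WES1 (GH3.5), GH3.3 and IAA29, had log2 changes of -0.30, -0.67 and 0.38 and were not called. Nor were any of 11 Aux/IAA and GH3 genes matched by name. The match found no SAUR gene, so that early auxin family was not covered. The clock gene GI (0.21 ± 0.20) and the anthocyanin genes AT4G14090 (-0.36 ± 0.14), UF3GT (-0.39 ± 0.18) and DFR (-0.22 ± 0.32) were not called, and neither were any of 8 named histone genes. Root material was followed by EXPA7 and EXPA18, expansins of root hairs, the 2 of 13 listed root markers with a named probe set. EXPA7 had 1.33 and 1.84 with BA and 1.16 and 1.40 with DMSO, and EXPA18 had 1.09 and 1.91 with BA and 1.23 and 1.303 with DMSO. In both genes the arrays overlapped and no call was made.

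**Figure D3:**
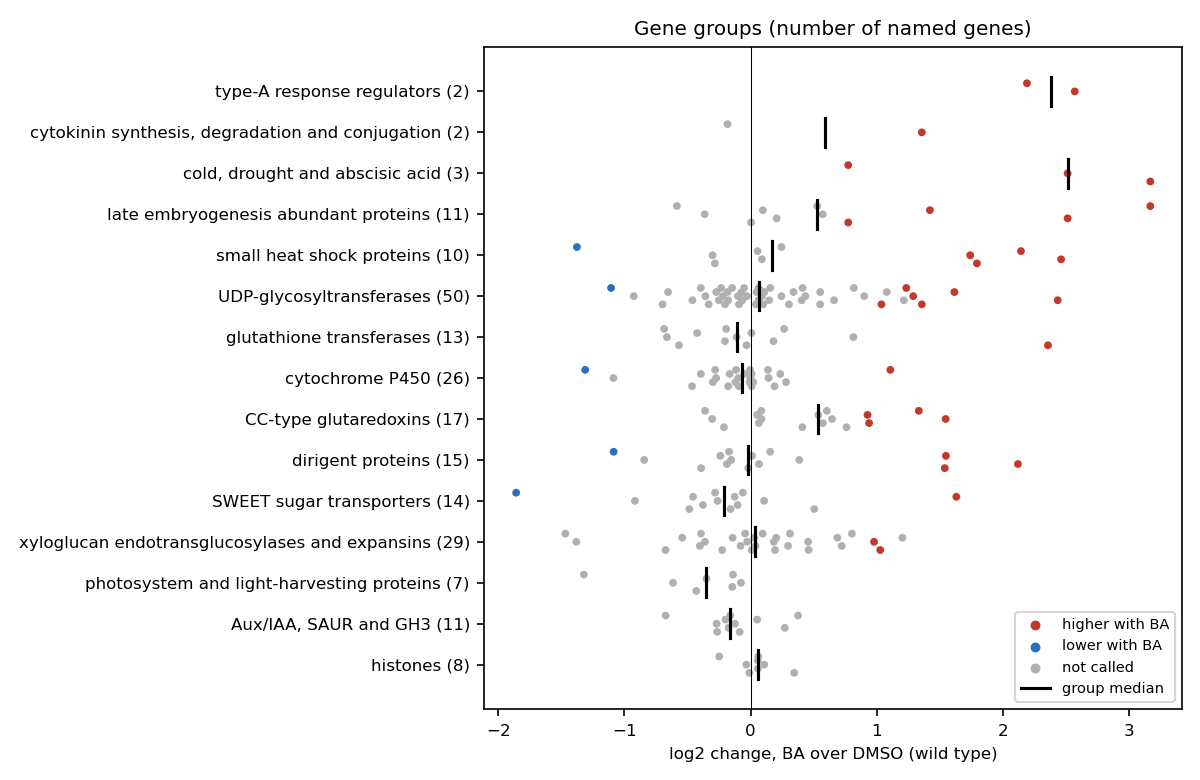
Log2 change, BA over DMSO, of every named gene in 15 groups, with the number of named genes in brackets, called genes in red (higher) or blue (lower) and the group median as a bar. The UDP-glycosyltransferases show 6 red points beside a median of 0.06, and the CC-type glutaredoxins a median of 0.54. The cytochrome P450 group includes the cyclophilins CYP59 and CYP71, and the Aux/IAA, SAUR and GH3 group holds no SAUR gene.

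Called genes lay on all 5 nuclear chromosomes. Over all named genes 3.32% were called, with 259 lower and 184 higher. Among named probe sets, lower ones likewise outnumbered higher ones on chromosome 1 (84 lower and 44 higher of 3451) and chromosome 2 (47 and 24 of 2200). The same held on chromosome 3 (51 and 44 of 2746) and chromosome 5 (52 and 42 of 3008). On chromosome 4 there were 29 of each among 1962. Differences between chromosomes were not tested. Of the 69 named probe sets of the plastid genome none passed limma, where 447 of all 13513 named probe sets did. An unadjusted limma p under 0.05 was seen in 15 of these 69 and in 4382 of all 22746, named or not. The log2 changes of the plastid probe sets spread from -1.99 to 2.02 with a median of 0.22.

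Some called genes were neighbours in the RefSeq gene order (assembly TAIR10.1). In 12 of 5878 adjacent pairs of named protein-coding genes both members were called (0.204%), 11 of them in the same direction. In 5 pairs both changed at least 2-fold. They were COR15B with COR15A, AT4G11190 with AT4G11210, AT3G45700 with AT3G45710, UGT73B5 with UGT73B4, and AT5G62130 with AT5G62140, the last falling by 1.08 and 1.36. AT5G62130 did not pass with 7 arrays (limma adjusted p = 0.0576) or with an offset of 1 (0.0622), nor AT3G45710 with trended, robust moderation (0.0669). AT3G45700 and AT3G45710, transporter genes of the NPF family, rose by 2.23 and 1.35. In the same cluster AT3G45680 rose by 1.52 (limma adjusted p = 0.0171) and AT3G45690 differed by -0.02, a comparison made after their values were seen. Whether probe sets of neighbouring relatives read each other's transcripts was not tested.

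The same genes on the mutant arrays are given as values, with no test of the difference. RR16 read 0.609 and 0.748 in the BA-treated mutant and 0.618 and 0.647 in the DMSO-treated mutant, and ARR15 read 0.728 and 0.809 with BA and 0.618 and 0.507 with DMSO. None of these values reached the lower of the wild-type BA arrays. AT4G03610 read 0.842 and 0.928 in the mutant with BA and 1.05 and 0.824 with DMSO. AT2G27420 read 1.45 and 1.03 in the mutant with BA and 0.687 and 0.966 with DMSO, below both wild-type DMSO arrays. COR15A read 6.77 and 2.50 in the mutant with BA and 0.872 and 4.12 with DMSO. Its mutant BA arrays thus lay above both wild-type BA arrays, and its mutant groups overlapped, with a wide gap between the DMSO replicates.

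**Figure D4:**
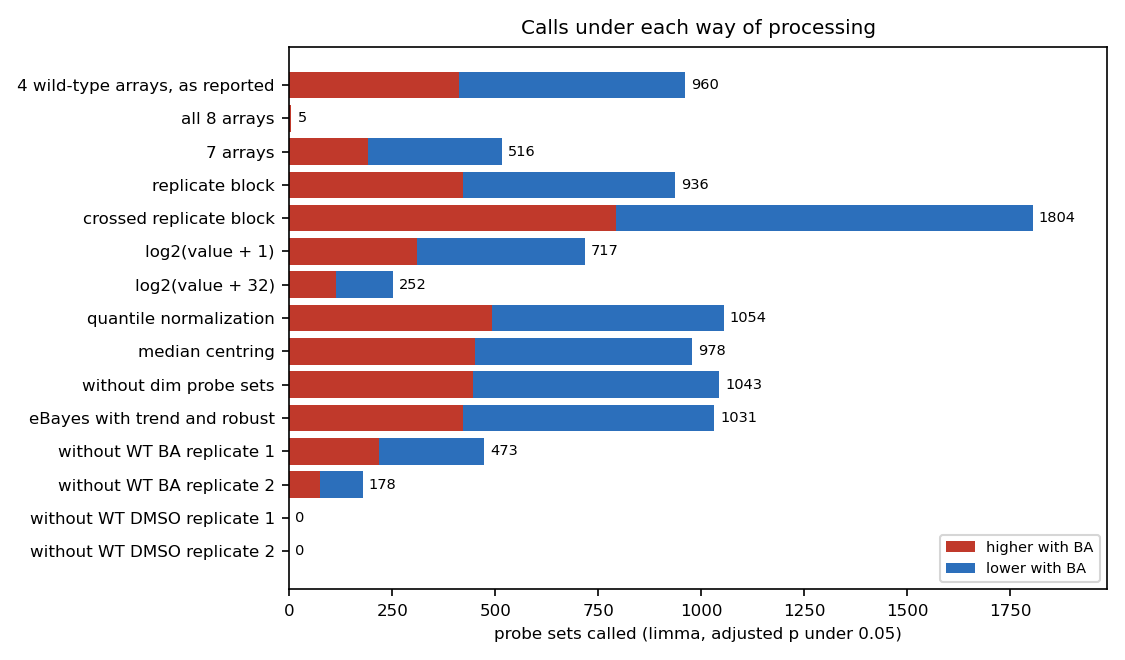
Number of probe sets called at a limma adjusted p under 0.05 (x axis) under each way of processing, split into higher (red) and lower (blue) with BA. The count is 960 with the 4 wild-type arrays, 5 with all 8 arrays and 0 without either DMSO array.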

How the data were processed

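RNA from 2 BA-treated and 2 DMSO-treated wild-type samples was compared. The authors deposited linear ratios per probe set. That they are ratios was read from the values, and the summarisation, background correction and scaling between arrays have no description in the sources used here. Tests omitted 64 AFFX control probe sets. Probe sets were named from the platform annotation, which gives 1 gene for 13513 of 22746, several for 503 and none for 8730, the last unnamed here. Symbols were updated through RefSeq (TAIR10.1) for 13436. For 146 genes with several probe sets, that with the highest mean was used.

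Log2 ratios, with no offset, were fitted with limma (version 3.58.1, R 4.3.3), 1 mean per group over the 4 arrays. The fit had 2 residual degrees of freedom and used empirical Bayes moderation. It was also run on simulated data. Their noise followed the model that the moderation assumes, so that run cannot show whether these arrays meet it. The number of arrays limits the precision. Called means a Benjamini-Hochberg adjusted p under 0.05. Named genes were the 15 largest called changes in each direction, among genes whose BA and DMSO arrays did not overlap. To these were added all type-A regulators and up to 4 genes per other list or family by lowest p. All called members of a list with 8 or fewer of them, and the 5 neighbouring pairs called at 2-fold or more, also entered. Other genes are marked as chosen after their values were seen. Families were matched by gene symbol or full name. Members, lists and rules were chosen with earlier results of these data known. Alternatives covered other arrays in the fit, offsets, normalization, dim probe sets, moderation, a replicate block and leaving out arrays.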

Additional observations from a re-analysis of the deposited data

How the results depend on the processing

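The 960 calls (411 higher, 549 lower) became 5 (3 higher, 2 lower) with all 8 arrays in the fit. They became 516 (192 higher, 324 lower) with 7 arrays, without mutant DMSO replicate 1. The choice of these 7 was made with earlier results of these data known. An offset of 32 gave 252 (113 higher, 139 lower). Leaving out a wild-type array gave 0 to 473 calls (0 to 217 higher, 0 to 256 lower), with 1 residual degree of freedom. An offset of 1, quantile normalization, median centring, leaving out the probe sets with a lower median, taken as dim (RR16 and ARR15 included), and a trended, robust moderation gave 717 to 1054 calls. The replicate numbers are not known to pair the arrays: deviations of same-numbered arrays had a correlation of -0.17 across probe sets, and a replicate block gave 936 calls. A crossed replicate block, added after seeing the data, gave 1804 (793 higher, 1011 lower). The cause of these differences was not tested. Of the 121 genes named by rule, 63 were called, and 3 of these passed with 8 arrays, 51 with 7, 52 with an offset of 1, 26 with an offset of 32, 62 with the replicate block (COR47 did not), 47 without BA replicate 1 and 37 without BA replicate 2. All sign changes were in genes not called. Leaving out an array could not turn the sign of a called gene, because its BA and DMSO arrays did not overlap. Adding mutant arrays or a replicate block left every log2 change as it was. Under quantile normalization the log2 change of NRT2.5 was 0.048. When 1 wild-type array was left out, that of NRT2.5 ranged from -0.19 to 0.14, DFR from -0.74 to 0.29, GRXC2 from -0.15 to 0.013, PRX52 from -0.30 to 0.20 and PRXR1 from -0.077 to 0.13. UGT76C1 ranged from -0.39 to 0.025, PORB from -0.78 to 0.37, EXPA18 from -0.21 to 0.60, LHCB4.1 from -0.19 to 0.033 and HTB1 from -0.00384 to 0.12. Taking the probe set with the lowest mean gave 430 called genes against 443. It could not change the genes named by rule, because none of them had another named probe set.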
